A study of Homo sapiens with 12 samples.

Results

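Cytochrome P450 genes were followed in K562 cells, an established line from a patient with chronic myeloid leukaemia, after treatment with a BCR-ABL1 kinase inhibitor. The members were all probe sets whose platform annotation named exactly 1 gene with a symbol made of CYP and a number, except CYP51A1, at every signal level. This gave 66 probe sets for 43 genes, of 22215 non-control probe sets on the array, and 12 of the genes had several probe sets. A further 8 probe sets that named a P450 gene together with other genes were left out. The cells had received imatinib at 0.5 µM (4 arrays), nilotinib at 0.05 µM (4 arrays) or the solvent DMSO (4 arrays), each for 24 hours, and the design asks how each drug changed expression against the untreated state. All 3 groups are cultures of 1 cell line in the same serum-containing medium, and whether the 4 arrays of a group stem from separate cultures is not in the labels, so a p-value speaks of the spread among these arrays, which may be technical. The drug doses differed, so nilotinib against imatinib compares these treatments and not the compounds at a matched dose. The study examined the expression profile of the cells as a whole, and P450 genes are the subset described here.

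Cytochrome P450 enzymes are haem proteins that insert an oxygen atom from molecular oxygen into their substrates, using electrons passed on by a reductase or, in mitochondria, by a ferredoxin. Families 1 to 3 oxidise drugs and other foreign compounds, mostly in liver and gut, and CYP3A4 is the main enzyme that clears both imatinib and nilotinib from the body. Other families make or break down steroid hormones, bile acids, vitamin D, retinoids and fatty acid derivatives. Their transcription in liver is known to be driven by ligand-activated receptors: the aryl hydrocarbon receptor for family 1, and the receptors PXR (NR1I2) and CAR (NR1I3), each paired with RXR, for much of families 2 and 3.

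In these cells the P450 response was led by CYP3A5, which rose with both drugs on all 3 of its probe sets. The rest of the CYP3A subfamily was higher on most of its probe sets. Outside CYP3A5, every called CYP3A probe set carried the suffix _x_at, which marks probes that also match other transcripts. Not all of these kept their calls under other scalings. CYP1A1, CYP2E1 and CYP2F1 also rose with both drugs. No P450 probe set was called lower by limma in any of the 3 comparisons, and at an unadjusted p under 0.05 the lower ones numbered 1 with imatinib, 0 with nilotinib and 0 for nilotinib against imatinib. Outside these genes 48 P450 probe sets remained, 36 of them among the dimmest 40% of the array. With imatinib 0 of the 48 were called by limma (1 at an unadjusted p under 0.05), beside 11.5% of all probe sets called higher and 8.88% lower, and with nilotinib 12 (25.0%) were called, all higher, beside 28.6% higher and 13.0% lower.

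The upstream sequences of the CYP3A genes that the results turn on, and of CYP1A1, are shown first, because the account below turns on how members of that subfamily differ and on the aryl hydrocarbon receptor's target. They are the 250 bases before each gene's annotated start in RefSeq's GRCh38.p14 table, read 5′ to 3′ on the gene's own strand. Capitals mark matches to TGATAA (a core of GATA factors), to the element made of TGAACT, then 6 bases of any kind, then AGGTCA (known in CYP3A4 as the proximal PXR element, and capitalised over its full length) and, in CYP1A1, to GCGTG (the core bound by the aryl hydrocarbon receptor). CYP3A5 lies at chr7:99679997-99680246 on the minus strand, CYP3A4 at chr7:99784185-99784434 on the minus strand, CYP3A7-CYP3A51P (CYP3A7 with a readthrough into a neighbouring pseudogene) at chr7:99735197-99735446 on the minus strand, CYP3A43 at chr7:99827763-99828012 on the plus strand and CYP1A1 at chr15:74725529-74725778 on the minus strand.
CYP3A5: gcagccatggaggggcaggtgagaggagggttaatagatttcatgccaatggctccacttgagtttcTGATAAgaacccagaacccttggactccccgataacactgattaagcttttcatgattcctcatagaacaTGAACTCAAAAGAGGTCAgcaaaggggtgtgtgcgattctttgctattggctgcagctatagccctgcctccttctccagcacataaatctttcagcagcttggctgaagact
CYP3A4: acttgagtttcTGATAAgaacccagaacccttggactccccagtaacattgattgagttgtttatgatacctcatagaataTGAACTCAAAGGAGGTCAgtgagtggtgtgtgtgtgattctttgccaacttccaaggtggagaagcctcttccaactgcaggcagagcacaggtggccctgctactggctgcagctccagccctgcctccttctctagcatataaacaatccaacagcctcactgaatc
CYP3A7-CYP3A51P: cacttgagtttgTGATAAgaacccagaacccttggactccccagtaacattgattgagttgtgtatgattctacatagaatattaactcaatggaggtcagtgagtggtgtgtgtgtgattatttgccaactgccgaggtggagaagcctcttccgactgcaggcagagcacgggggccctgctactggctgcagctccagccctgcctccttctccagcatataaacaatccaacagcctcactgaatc
CYP3A43: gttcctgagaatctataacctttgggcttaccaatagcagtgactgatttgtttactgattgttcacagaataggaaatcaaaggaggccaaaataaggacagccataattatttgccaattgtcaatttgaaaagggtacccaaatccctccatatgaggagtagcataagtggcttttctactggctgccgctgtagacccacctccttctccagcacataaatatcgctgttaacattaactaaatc
CYP1A1: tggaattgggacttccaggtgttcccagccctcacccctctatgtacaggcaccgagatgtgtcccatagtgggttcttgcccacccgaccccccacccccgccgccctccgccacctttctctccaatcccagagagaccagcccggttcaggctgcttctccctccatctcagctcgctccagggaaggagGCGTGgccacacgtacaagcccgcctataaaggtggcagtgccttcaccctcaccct
Matches were looked for on both strands, and in these windows all those marked lie on the gene's own strand. The 18-letter element was present in CYP3A5, 113 to 96 bases before the start, and in CYP3A4, 169 to 152 bases before it. Of 35116 upstream windows of the same length, 3 held it (0.00854%), the third being that of ITGB1BP2. TGATAA stood in CYP3A5, CYP3A4 and CYP3A7-CYP3A51P but not in the CYP3A43 window, and in 6.66% of all windows. Among the 29 of 43 P450 genes with an entry in the table, 4 windows (13.8%) held TGATAA, the other being CYP11A1. AGATAA, the other GATA core looked for, stood in 2 of the 29 (6.9%), CYP17A1 and CYP4F2, and in 9.17% of all windows. GCGTG was found once in CYP1A1, in 6 of the 29 P450 windows and in 32.2% of all windows. Aligned with free ends, the CYP3A4 and CYP3A7-CYP3A51P windows were identical at 94.4% of 250 columns, and those of CYP3A5 and CYP3A4 at 64.9% of 251. Those of CYP3A5 and CYP3A43 were identical at 54.5% of 257 columns. Each CYP3A window against that of CYP1A1 gave 52.6% to 55.4%, over only 83 to 174 columns. That range thus rests on shorter stretches, and the value of CYP3A5 and CYP3A43 lies within it. A match describes letters only, and binding was not measured.

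The values are array signals on a linear scale. Changes were fitted with limma on log2(signal + 16) of all 22215 probe sets, and a probe set was called at a Benjamini-Hochberg adjusted p under 0.05. Because 16 is added, a log2 change understates the change of a dim probe set. The 95th percentile of 27 bacterial control probe sets, which have no target in human RNA, is used below as the control level of an array. It was 41.5 ± 11.3 (SD, n = 4) with DMSO, 57.4 ± 8.98 with imatinib and 97.4 ± 10.3 with nilotinib.
The array median signal moved the same way, at 119 ± 2.15, 142 ± 8.72 and 179 ± 12.1 (SD, n = 4), although the trimmed mean of every array was 500. A two-sided exact permutation test of this median gave p = 0.0286 for each drug against DMSO, the smallest that 4 arrays against 4 allow. The 28S ribosomal control read 5431 ± 135 with DMSO, 20453 ± 1241 with imatinib and 24015 ± 2137 with nilotinib. The actin 3′/5′ ratio, a sign of RNA integrity, was over 3.5 on replicates 1 and 2 of nilotinib and 5 and 6 of imatinib and on no DMSO array. The part of these shifts in the changes of dim P450 probe sets was not tested. Over all probe sets the median log2 change was 0.14 with imatinib and 0.36 with nilotinib, and with nilotinib it ran from 0.53 in the dimmest 20% of probe sets to -0.08 in the brightest 20%. All 7 genes of the K562 marker list that had a probe set (GATA1, TAL1, KLF1, HBE1, HBZ, TFRC and EPOR) were over the control level in every group. The hepatocyte markers, from a list of 10 genes, had summed signals between 324 and 534 (DMSO), 441 and 720 (imatinib) and 784 and 1400 (nilotinib), with 5, 5 and 6 genes over the control level, and those of the 5 intestinal markers lay between 150 and 220, 354 and 400, and 494 and 685, with 1, 2 and 1 over it.

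CYP3A5, a drug-oxidising enzyme that overlaps with CYP3A4 in its substrates, was the brightest P450 gene by mean log2 signal over all 12 arrays. On that mean its 3 probe sets were the only P450 probe sets among the brightest 20% of the array. With DMSO alone their means (139, 126 and 214) were under those of CYP1A2 207608_x_at (299), CYP3A4 205998_x_at (290) and CYP20A1 (230). On probe set 205765_at the DMSO arrays read 137, 158, 140 and 121, the imatinib arrays 2053, 1560, 1752 and 2040, and the nilotinib arrays 2934, 2763, 3830 and 3556. Every drug array was above every DMSO array, and every nilotinib array was above every imatinib array. The group means were 139 ± 15, 1851 ± 239 and 3271 ± 505 (SD, n = 4), a ratio to DMSO of 13.3 with imatinib and 23.5 with nilotinib. The log2 change was 3.58 ± 0.12 (SE; adjusted p = 3.65e-13) with imatinib and 4.40 ± 0.12 (adjusted p = 3.29e-14) with nilotinib.

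The second CYP3A5 probe set, 214234_s_at, read 87.5, 133, 106 and 177 with DMSO, 1855, 1585, 2107 and 2253 with imatinib and 3119, 2873, 3534 and 3666 with nilotinib. Its groups did not overlap either, and its log2 changes were 3.82 ± 0.16 and 4.58 ± 0.16. The third, 214235_at, read 250, 247, 120 and 240 with DMSO, 1395, 1155, 1528 and 1466 with imatinib and 2415, 1856, 2360 and 2731 with nilotinib. It had the highest DMSO level and the smallest changes of the 3, at 2.65 ± 0.18 and 3.39 ± 0.18 (SE), and replicate 11 of DMSO lay far below the other 3 arrays of its group.
All 3 probe sets were at the 99.8th percentile or above when set beside the 500 probe sets nearest in mean signal, whose median change was between -0.07 and 0.00. That mean is over all 12 arrays and includes the rise itself, so these neighbours were not matched to the DMSO level of CYP3A5. Nilotinib read higher than imatinib by 0.81 ± 0.12 (adjusted p = 0.000737), 0.76 ± 0.16 (adjusted p = 0.00876) and 0.74 ± 0.18 (adjusted p = 0.0208). That step was smaller with each array centred on its median (0.52, 0.46 and 0.45), where it was called for the first probe set only. On the drug arrays of high actin ratio alone it was called for none of the 3 (0.67, 0.80 and 0.73, with adjusted p of 0.0543, 0.0957 and 0.174), and 214234_s_at and 214235_at also lost their calls on the arrays of lower ratio (adjusted p = 0.147 and 0.194) and without a variance trend in limma (adjusted p = 0.0603 and 0.0851). The call of 214235_at was also lost without nilotinib replicate 4 (0.67, adjusted p = 0.0641) or imatinib replicate 6 (0.66, adjusted p = 0.0723). The changes against DMSO kept their calls on all 3 probe sets in every alternative run, between 2.41 and 3.99 with imatinib and between 2.87 and 4.74 with nilotinib.

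**Figure D1:**
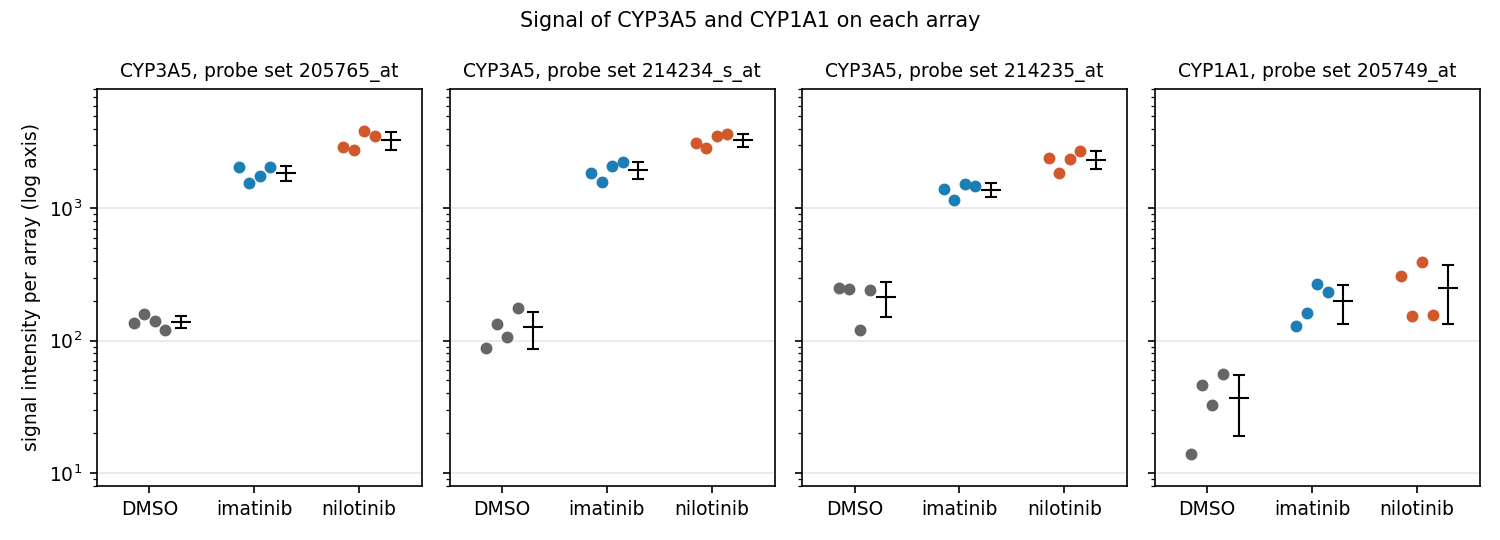
Signal intensity on each array (points, log axis) for the 3 CYP3A5 probe sets and the CYP1A1 probe set in DMSO, imatinib and nilotinib groups, with the mean and SD of 4 arrays beside them. On CYP3A5 probe set 205765_at the DMSO arrays lie between 121 and 158 and the nilotinib arrays between 2763 and 3830, and CYP1A1 shows separate DMSO and drug arrays with overlapping drug groups.

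CYP3A7, the fetal member of the subfamily, had 1 probe set among those kept here, 211843_x_at, annotated to the readthrough gene CYP3A7-CYP3A51P. It read 53.4, 48.5, 96.6 and 41.6 with DMSO, 219, 270, 416 and 282 with imatinib and 417, 549, 483 and 603 with nilotinib, with no overlap between any 2 groups. The log2 change was 2.05 ± 0.24 (adjusted p = 5.27e-06) with imatinib and 2.84 ± 0.24 (adjusted p = 5.71e-08) with nilotinib, and the step from imatinib to nilotinib, 0.78 ± 0.24, was not called (adjusted p = 0.0655).

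CYP3A43, a member of low activity, had 4 probe sets, of which 3 rose with both drugs on the deposited scale and under each other scaling, and the fourth, 211442_x_at, was called with nilotinib on the deposited scale only. On 207773_x_at the DMSO arrays read 83.3, 55.9, 29.7 and 36.2, the imatinib arrays 240, 138, 238 and 223, and the nilotinib arrays 262, 345, 316 and 323. The groups were separate, and the changes were 1.78 ± 0.28 (adjusted p = 0.000116) and 2.34 ± 0.28 (adjusted p = 3.5e-06). Probe set 211440_x_at went from 75, 63.5, 83.6 and 52.6 with DMSO to 248, 235, 167 and 202 with imatinib and 264, 673, 250 and 308 with nilotinib, with nilotinib replicate 2 the high array. For 211441_x_at the values were 106, 62.2, 63.4 and 150, then 213, 293, 323 and 301, then 323, 282, 490 and 552. These probe sets changed by 1.43 ± 0.29 and 1.48 ± 0.27 with imatinib and by 2.10 ± 0.29 and 1.96 ± 0.27 with nilotinib. On 211442_x_at (107, 120, 83.3 and 72.4 with DMSO, 307, 250, 48.4 and 208 with imatinib, 179, 208, 509 and 373 with nilotinib) imatinib replicate 7 was below every DMSO array, so the imatinib change of 0.77 ± 0.42 was not called (adjusted p = 0.241; 1.28 and adjusted p = 0.00925 without that array), and the nilotinib change was 1.48 ± 0.42 (adjusted p = 0.0105). That nilotinib call was lost under quantile normalization (1.04, adjusted p = 0.111), median centring (0.96, adjusted p = 0.113) and cyclic loess (1.03, adjusted p = 0.105).

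CYP3A4, the most abundant drug-metabolising P450 of adult liver, was less uniform. Its probe set 205999_x_at read 113, 77.8, 46.2 and 24.7 with DMSO, 230, 125, 194 and 95 with imatinib and 416, 355, 283 and 375 with nilotinib. The lowest imatinib array lay within the DMSO range and the nilotinib arrays lay above both other groups. The nilotinib change was 2.31 ± 0.34 (adjusted p = 3.99e-05). The imatinib change was 1.18 ± 0.34 (adjusted p = 0.0197), a call lost under each other scaling (0.94 to 0.95, adjusted p 0.0645 to 0.0827) and without imatinib replicate 5 (1.00), imatinib replicate 7 (1.07), DMSO replicate 11 (1.09) or DMSO replicate 12 (0.89). On 205998_x_at the means were 290 ± 94.5, 453 ± 67.9 and 540 ± 146 (SD, n = 4) with overlapping arrays, and both changes were called at 0.65 ± 0.23 (adjusted p = 0.0483) and 0.87 ± 0.23 (adjusted p = 0.00569). The imatinib call was lost under all 3 other scalings (adjusted p = 0.107 to 0.217) and the nilotinib call under median centring (adjusted p = 0.265). Probe set 208367_x_at, whose group means were all under the control level, was called with nilotinib (means of 8.27, 16.3 and 80.3; 1.78 ± 0.38, adjusted p = 0.00136) and not with imatinib (0.39 ± 0.38), and its difference between the drugs was 1.39 ± 0.38 (adjusted p = 0.0404). The only CYP3A4 probe set without the suffix _x_at, 210726_at, had means of 41.8 ± 35.4, 43.9 ± 28.7 and 92.6 ± 75.2 and passed no test (0.14 ± 0.57 and 0.82 ± 0.57).

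In all, 9 of the 12 CYP3A probe sets (75.0%) rose with imatinib and 11 of 12 (91.7%) with nilotinib, beside 11.5% and 28.6% of all probe sets. Their median changes were 1.46 and 2.21, beside 0.14 and 0.36 over the array. The suffix _x_at marks a probe set with probes that also match other transcripts, and 8 of the 12 carry it, including every probe set of CYP3A43 and CYP3A7. CYP3A genes are related in sequence, CYP3A4 and CYP3A7 most closely. Probe sequences were not analysed here, so which of these genes gave the signal of an _x_at probe set was not tested. Of the 4 CYP3A probe sets without that suffix, the 3 of CYP3A5 rose and that of CYP3A4 was not called. Of the 3, 214234_s_at carries the suffix _s_at, which also marks matches to other transcripts, and 205765_at and 214235_at carry neither suffix.

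**Figure D2:**
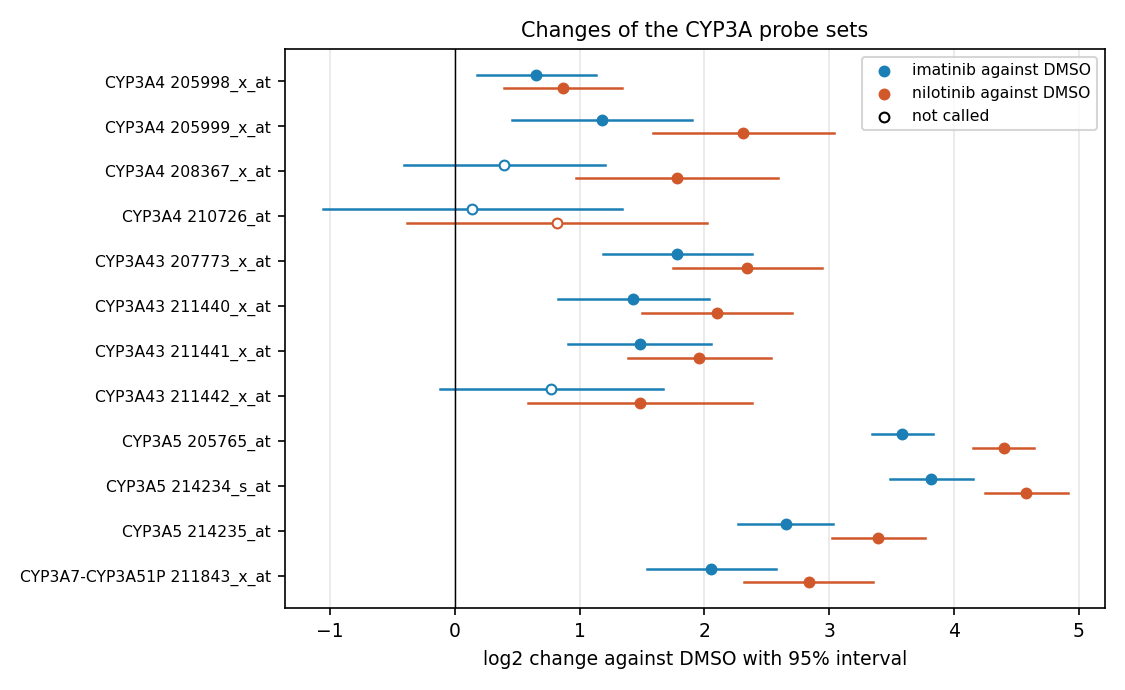
Log2 change against DMSO with its 95% interval for the 12 CYP3A probe sets, imatinib in blue and nilotinib in orange, with filled points for called changes and open points for those not called. The CYP3A5 probe sets lie furthest right, from 2.65 to 4.58, and CYP3A4 210726_at is open for both drugs.

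Of the family 1 genes, CYP1A1 alone was called. CYP1A1, which oxidises aromatic hydrocarbons and is the classic target of the aryl hydrocarbon receptor, rose with both drugs. Its probe set read 13.8, 46.2, 32.7 and 55.7 with DMSO, 128, 162, 270 and 235 with imatinib and 306, 153, 393 and 156 with nilotinib. Every drug array was above every DMSO array. The nilotinib arrays fell into a high pair above every imatinib array and a low pair within the imatinib range. The change was 2.04 ± 0.37 (adjusted p = 0.000512) and 2.30 ± 0.37 (adjusted p = 9.3e-05), at the 99.4th percentile of probe sets of like signal for both drugs. Its DMSO mean of 37.1 was under the control level of 41.5, with 2 of the 4 DMSO arrays over the level of their own array, so the level its change is measured from is known only roughly, while all 8 drug arrays were over theirs. The difference between the drugs was 0.27 ± 0.37 (adjusted p = 0.688). CYP1A2, a close relative that oxidises caffeine, read 299 ± 38.5, 270 ± 75.4 and 442 ± 118 on 207608_x_at and was not called (-0.17 ± 0.21 and 0.51 ± 0.21). Its other probe set, 207609_s_at, read 15.1, 47.4, 67.6 and 95.4 with DMSO and 23.2, 16.9, 14.3 and 10.2 with imatinib, with overlapping arrays, and its imatinib change of -1.04 ± 0.44 did not pass the test (adjusted p = 0.117). None of the 4 probe sets of CYP1B1, which activates polycyclic hydrocarbons and oestrogens, was called in any comparison, and their changes ran from -0.16 to 0.54 with imatinib and from 0.33 to 0.67 with nilotinib. Their group means, from 5.41 to 77.9, were all under the control level of their group. The lack of a call thus does not show whether CYP1B1 followed CYP1A1.

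The aryl hydrocarbon receptor itself went the other way from CYP1A1. AHR read 744, 665, 750 and 604 with DMSO, 51.5, 68.6, 70.3 and 87.4 with imatinib and 92, 37, 46.4 and 82.8 with nilotinib, so the groups were far apart and the drug arrays lay near or under the control level of their own group. Its change was -3.06 ± 0.27 (adjusted p = 1.42e-07) and -3.19 ± 0.27 (adjusted p = 4.73e-08). Its DNA-binding partner ARNT, on probe set 218221_at, had means of 319 ± 62.7, 481 ± 103 and 588 ± 49.3 and was called higher at 0.56 ± 0.16 and 0.86 ± 0.16, calls that median centring ended (0.34 for both drugs), as did quantile normalization for imatinib (0.45).

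**Figure D3:**
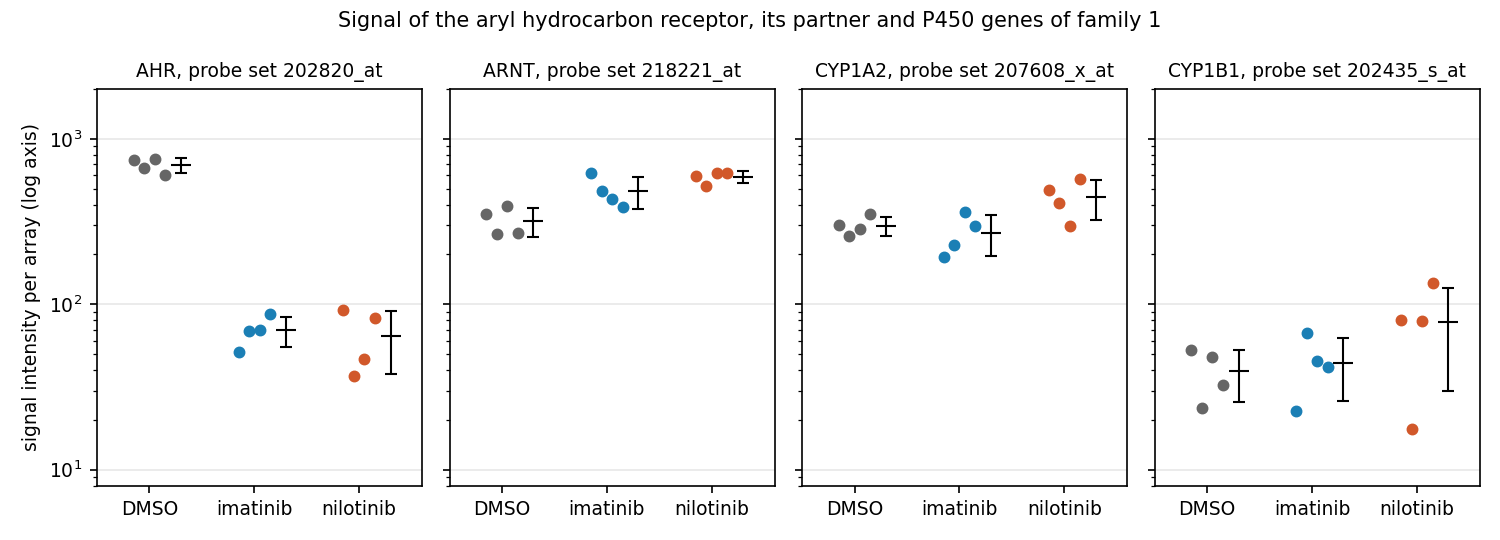
Signal intensity on each array (points, log axis) for AHR, ARNT and the brightest probe sets of CYP1A2 and CYP1B1, with the mean and SD of 4 arrays beside each group. AHR falls from a mean of 691 with DMSO to 69.4 with imatinib and 64.6 with nilotinib, while the CYP1A2 and CYP1B1 groups overlap.

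Family 2 held the other P450s that rose with both drugs. CYP2E1, which oxidises ethanol, read 59.9, 13.6, 87.7 and 14.2 with DMSO, 119, 159, 178 and 134 with imatinib and 253, 220, 139 and 255 with nilotinib on 209975_at. The DMSO arrays fell into a low and a high pair, and all drug arrays lay above both. The change was 1.65 ± 0.39 (adjusted p = 0.00506) with imatinib and 2.14 ± 0.39 (adjusted p = 0.000349) with nilotinib. Over its 4 probe sets CYP2E1 was called higher on 3 with imatinib and on 4 with nilotinib, beside 11.5% and 28.6% of all probe sets. Its median changes were 0.95 and 1.22. Under all 3 other scalings the calls of 209975_at alone were kept, and 209976_s_at was under the control level on every array. For 209975_at 2 of the 4 DMSO arrays were over the control level. CYP2F1, a lung enzyme that oxidises naphthalene, read 112, 50.1, 137 and 158 with DMSO, 276, 172, 363 and 312 with imatinib and 282, 258, 399 and 262 with nilotinib, so that the lowest drug array was above the highest DMSO array. It changed by 1.23 ± 0.29 (adjusted p = 0.00505) and 1.35 ± 0.29 (adjusted p = 0.00152).
On the drug arrays of high actin ratio alone, the imatinib calls of CYP2E1 209975_at (1.58, adjusted p = 0.0716) and CYP2F1 (0.93, adjusted p = 0.137) were lost.

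Of the 8 probe sets of the CYP2A genes, whose best-known member CYP2A6 oxidises nicotine, 4 were called with nilotinib and 0 with imatinib. Over all probe sets 28.6% were called higher with nilotinib and 11.5% with imatinib. The 4 were 2 of the 4 of CYP2A6, that of CYP2A7 and, at a mean of 21.6, 1 of the pseudogene CYP2A7P1. CYP2A6 207244_x_at read 187, 97.8, 101 and 117 with DMSO, 165, 46.2, 198 and 157 with imatinib and 384, 365, 228 and 369 with nilotinib. The imatinib arrays spanned the DMSO range and the nilotinib arrays were above both groups. The changes were 0.06 ± 0.34 and 1.33 ± 0.34 (adjusted p = 0.00524), and the test of the difference between the drugs gave 1.28 ± 0.34 (adjusted p = 0.0359). That difference was not called under any other scaling and lost its call without nilotinib replicate 1 (1.21), 2 (1.23) or 4 (1.22) or imatinib replicate 6 (0.88) or 8 (1.37).
CYP2A6 211295_x_at read 135, 106, 120 and 176, then 205, 79.5, 177 and 153, then 431, 323, 189 and 313 in the same order of groups, with changes of 0.13 ± 0.29 and 1.10 ± 0.29 (adjusted p = 0.00641). CYP2A7, a relative without known activity, read 85.4, 38.4, 123 and 120 with DMSO, 123, 137, 125 and 54.9 with imatinib and 350, 102, 211 and 219 with nilotinib, and 1 nilotinib array lay within the DMSO range. Its nilotinib change of 1.12 ± 0.39 (adjusted p = 0.0307) lost its call when nilotinib replicate 1 (0.87), 3 (1.10) or 4 (1.08) or DMSO replicate 9 (1.12) or 10 (0.82) was left out. These 3 probe sets are of the _x_at kind, and the other 2 of CYP2A6, 1494_f_at (0.25 and 0.57) and 214320_x_at (-0.57 and 0.08), were not called with either drug. CYP2C8, which oxidises imatinib beside CYP3A4, was dim on both probe sets: 208147_s_at had means of 7.6, 23.8 and 34.9, with 1.10 ± 0.35 called for nilotinib (adjusted p = 0.0198), and 219903_s_at had means of 5.23, 20.9 and 16.3 and was not called.

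Set by role, the calls lay mostly with drug oxidation. Of its 39 probe sets, 14 (35.9%) rose with imatinib and 22 (56.4%) with nilotinib, beside 11.5% and 28.6% of all probe sets, with median changes of 0.54 and 1.00 beside 0.14 and 0.36. The CYP3A subfamily gave 9 of the 14 and 11 of the 22, and without it 5 of 27 (18.5%) and 11 of 27 (40.7%) rose, with medians of 0.26 and 0.75. Steroid hormone synthesis had 0 and 2 of 5 probe sets higher. Its brightest, CYP11B1, which makes cortisol, read 48.2, 62.2, 76.2 and 76.4 with DMSO, 117, 80.5, 128 and 49.6 with imatinib and 111, 170, 148 and 170 with nilotinib, a change of 0.38 ± 0.32 and 1.02 ± 0.32 (adjusted p = 0.0189). The nilotinib arrays were clear of DMSO and the imatinib arrays were not, and the call was lost without DMSO replicate 9 (0.91, adjusted p = 0.0558). CYP11A1, which starts steroid synthesis from cholesterol, was called with nilotinib at a mean of 33.8 ± 22.1, under the control level (0.90 ± 0.31).

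Among the 9 probe sets for fatty acids and eicosanoids, 0 and 2 were higher (CYP4F2 and CYP4F11, at nilotinib means of 93 and 11, both under the control level). The brightest, CYP4A11 207407_x_at, which hydroxylates fatty acids, had means of 58.1, 73.3 and 121 and was not called (0.29 ± 0.39 and 0.84 ± 0.39). Bile acids and oxysterols had 0 and 1 of 5 higher, the latter being CYP27A1, a mitochondrial sterol hydroxylase (19 ± 6.75, 35.7 ± 20.3 and 90.7 ± 87.8; 1.33 ± 0.45, adjusted p = 0.0257). Each of its means was under the control level of its group, and only nilotinib replicate 3, at 221, was over the level of its own array. Vitamin D and retinoids had 0 and 1 of 5 higher, the latter being CYP24A1, which breaks down active vitamin D. It read 12.5 ± 9.95 with DMSO and 46 ± 26 with nilotinib, both under the control level (1.05 ± 0.40, adjusted p = 0.0467). CYP2R1, which hydroxylates vitamin D in liver, was the brightest of that group at 142, 97.1 and 154 and passed no test. CYP20A1, whose function is not settled, read 230 ± 20.6, 231 ± 17.7 and 238 ± 100 and was not called (0.01 ± 0.26 and -0.06 ± 0.26, 95% intervals of -0.55 to 0.56 and -0.61 to 0.50). Of the other P450s of unsettled function, CYP2U1 was called with nilotinib at a mean of 18.3, under the control level (0.74 ± 0.25, adjusted p = 0.0274), and CYP2W1 was not called.
For these other roles together, 0 of 27 probe sets were called with imatinib by limma, and 0 had an unadjusted p under 0.05, beside 11.5% called higher over the array. With nilotinib 7 of 27 (25.9%) were called, all higher, beside 28.6%.

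**Figure D4:**
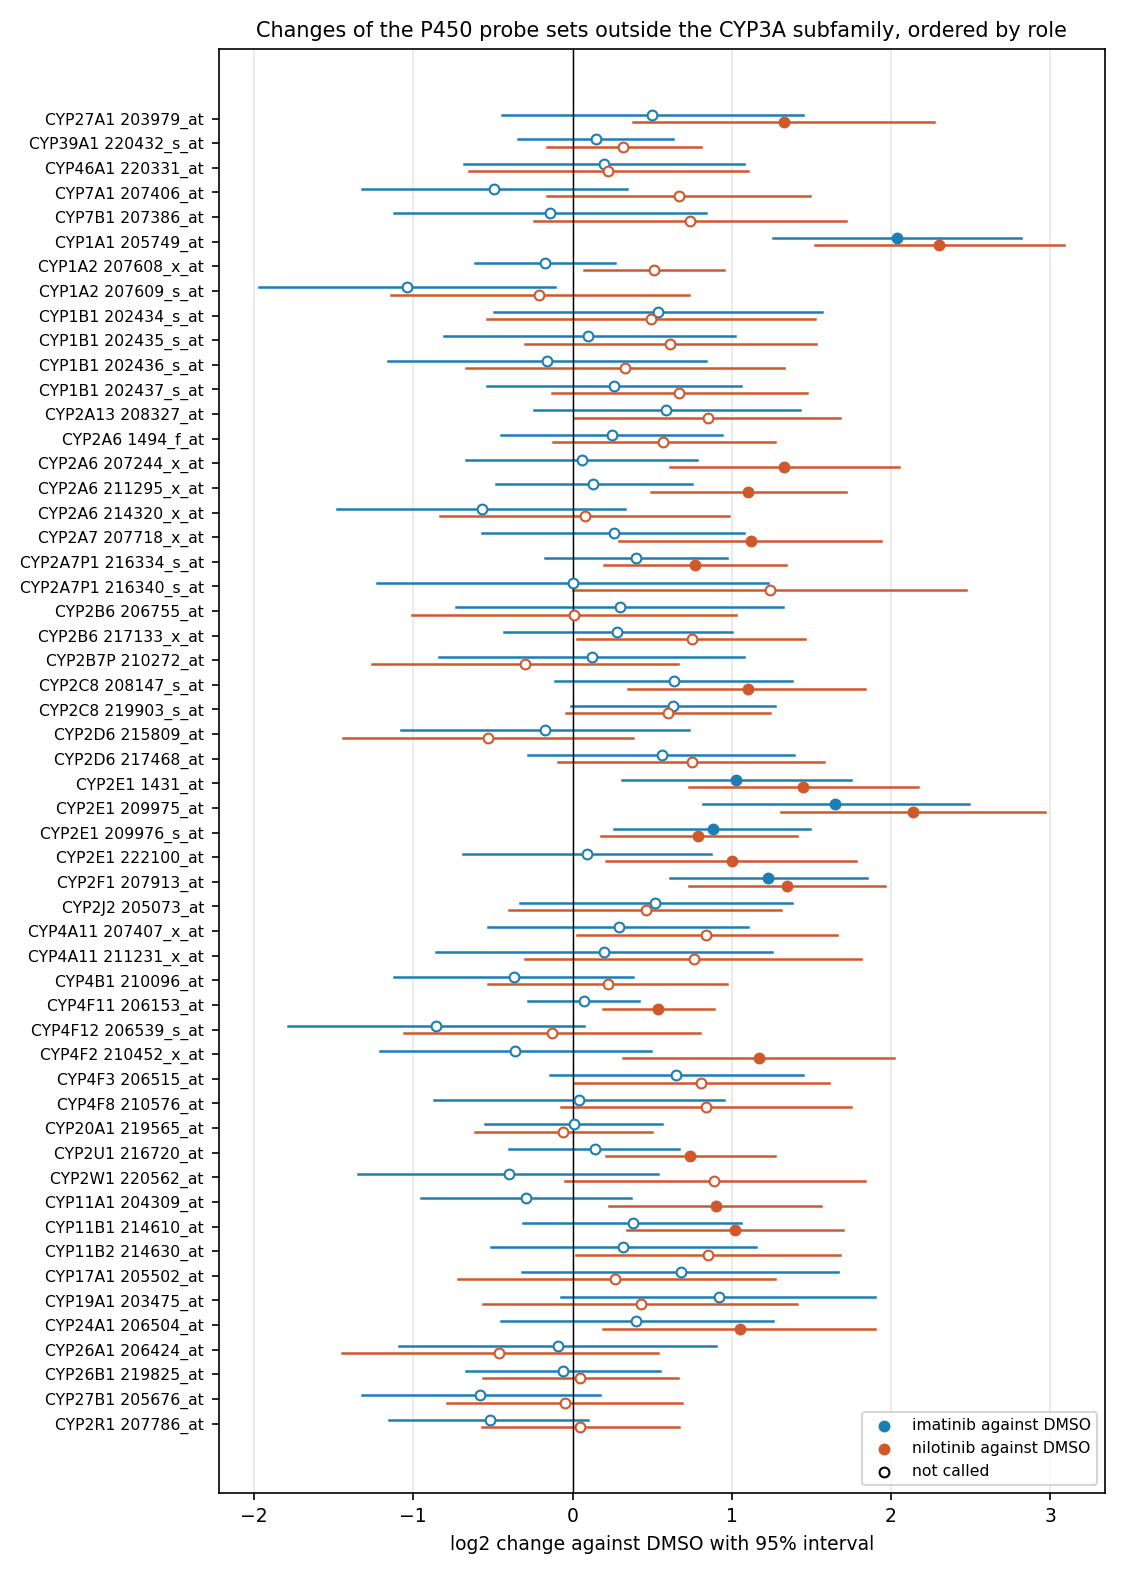
Log2 change against DMSO with its 95% interval for the 54 P450 probe sets outside the CYP3A subfamily, ordered by role from bile acids through drug oxidation, fatty acids, unsettled function and steroid hormones to vitamin D, with filled points for called changes. The filled points with imatinib are CYP1A1, 3 probe sets of CYP2E1 and CYP2F1, and no filled point lies left of 0.

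Over all members, 14 of 66 probe sets (21.2%) were called with imatinib, all higher, beside 20.4% of all probe sets called in either direction, 11.5% higher and 8.88% lower. With nilotinib 29 of 66 (43.9%) were called, all higher, beside 41.5% in either direction, 28.6% higher and 13.0% lower over the array. Between the drugs 7 of 66 (10.6%) were called, all higher with nilotinib, beside 6.08% in either direction, 2.74% higher and 3.34% lower. The arrays of 12 did not overlap between the drugs (18.2%, beside 14.3% of all probe sets). For each drug against DMSO the share called in either direction was thus near the background, and the share called higher was above it. The count between the drugs was 3 without nilotinib replicate 2, 4 without imatinib replicate 5, 2 without imatinib replicate 6 and 3 without imatinib replicate 8. Both drugs were compared with the same 4 DMSO arrays. All 14 probe sets called with imatinib were also called with nilotinib, which is 100.0% of the imatinib calls and 48.3% of the nilotinib calls. The genes with at least 1 called probe set numbered 7 with imatinib and 18 with nilotinib, of 43. The matching share over all genes was not counted, and 12 of the 43 had several probe sets and so more chances of a call. These gene counts are therefore a description only.

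The arrays of 14 P450 probe sets did not overlap between imatinib and DMSO (21.2%, beside 25.4% of all probe sets), and those of 25 did not overlap between nilotinib and DMSO (37.9%, beside 38.6%). The median P450 change was 0.27 with imatinib and 0.80 with nilotinib, against 0.14 and 0.36 over the array. Against the 500 probe sets nearest in mean signal over all 12 arrays, 36 of 66 members were above the median with imatinib and 45 with nilotinib. Those at or above the 97.5th percentile numbered 10 and 11, of which 6 and 9 were CYP3A probe sets, and 2 and 0 were at or below the 2.5th.

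The calls were spread unevenly over signal levels. With all probe sets cut into 5 equal classes by mean signal, from dim to bright, 23, 18, 20, 2 and 3 P450 probe sets lay in each. In the dimmest 2 classes 1 of 23 and 1 of 18 rose with imatinib (4.35% and 5.56%, beside 1.87% and 3.24% of all probe sets there called higher), and 8 of 23 and 4 of 18 with nilotinib (34.8% and 22.2%, beside 25.1% and 23.0%). In the middle class 8 of 20 rose with imatinib (beside 8.58%) and 13 of 20 with nilotinib (beside 33.9%). In the next class CYP3A4 205998_x_at rose with both drugs and the other probe set, CYP1A2 207608_x_at, with neither. Of all probe sets there 20.9% and 34.5% were called higher. In the brightest class the 3 of CYP3A5 rose, beside 22.9% and 26.3%. The classes use the mean over all 12 arrays, so the rise of CYP3A5 itself helped to place it there. Its DMSO means of 126 to 214 lay within the range of the middle class, 80.6 to 233. Its calls in the brightest class are thus not a separate result. All 3 group means were at or under the control level for 30 of the 66, and 10 of the 29 nilotinib calls and 1 of the 14 imatinib calls came from those. So did 3 of the 7 calls between the drugs. Over all probe sets of the dimmest 2 classes the median change between the drugs was 0.35 and 0.38. Outside the CYP3A subfamily 5 of 54 probe sets rose with imatinib (9.26%) and 18 of 54 with nilotinib (33.3%), against the 11.5% and 28.6% called higher over the array.

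**Figure D5:**
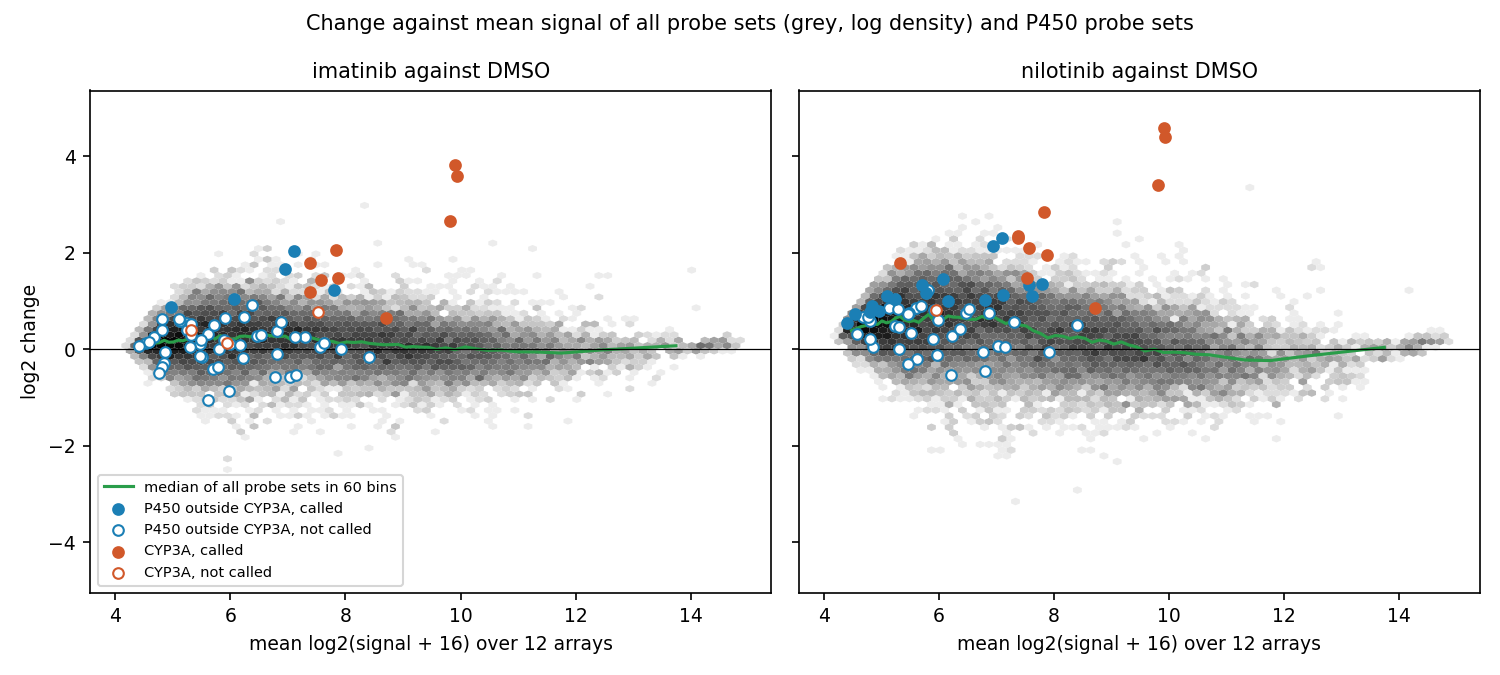
Log2 change against DMSO (vertical) by mean log2(signal + 16) over 12 arrays (horizontal) for all 22215 probe sets (grey density), with P450 probe sets in colour and filled where called, for imatinib (left) and nilotinib (right). The green line, the median in bins of equal number, is above 0 among dim probe sets with nilotinib, and the CYP3A5 points stand alone at the top, at 2.65 to 4.58.

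The nilotinib count depended on how the arrays were put on 1 scale. It was 29 on the deposited scale, 14 after quantile normalization, 13 after median centring and 13 after cyclic loess. Under all 3 of these scalings 12 of the 29 kept their call, namely the 3 of CYP3A5, 2 of CYP3A4, 3 of CYP3A43, and 1 each of CYP3A7-CYP3A51P, CYP1A1, CYP2E1 and CYP2F1, and 9 of the 12 were CYP3A probe sets. The calls of CYP2A6, CYP2A7, CYP11B1, CYP27A1, CYP24A1 and CYP2C8 were not among them. With imatinib 10 of the 14 kept their call, 7 of them CYP3A. Between the drugs 1 of 7 did, CYP3A5 205765_at.

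A list of genes of electron donors and other protein partners of P450 enzymes, PGRMC2 among them, held changes in both directions. Of 13 probe sets for 7 partner genes, 2 (15.4%) were higher and 4 (30.8%) lower with each drug, beside 11.5% and 8.88% of all probe sets with imatinib and 28.6% and 13.0% with nilotinib. The list's median change was 0.07 and -0.11, beside 0.14 and 0.36 over the array. All its probe sets but CYB5A 217021_at lay in classes 4 and 5 of the 5 signal classes, from dim to bright. The medians of all probe sets in classes 4 and 5 were 0.09 and -0.00 with imatinib, and 0.18 and -0.08 with nilotinib. POR, the reductase of the microsomal P450s, read 339, 370, 403 and 306 with DMSO, 251, 322, 392 and 351 with imatinib and 279, 114, 223 and 359 with nilotinib, and its changes of -0.11 ± 0.25 and -0.61 ± 0.25 (adjusted p = 0.06) were not called. The nilotinib change passed under quantile normalization (-0.92), median centring (-1.13) and cyclic loess (-0.88). FDX1, the ferredoxin of the mitochondrial P450s, fell on both probe sets, by 0.74 on the log2 scale with imatinib on each and by 0.85 and 0.84 with nilotinib. On 203647_s_at it read 1441, 1525, 1522 and 1365, then 917, 807, 949 and 803, then 768, 964, 730 and 789, with no drug array in the DMSO range. CYB5A, the microsomal cytochrome b5, was not called on any of its probe sets on the deposited scale. CYB5B, its mitochondrial outer membrane counterpart, fell on both probe sets, and CYB5R1, a cytochrome b5 reductase, rose (949 ± 42.8, 1631 ± 83 and 1924 ± 163; 0.77 ± 0.08 and 1.00 ± 0.08).

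Of 43 probe sets for 19 transcription factors of P450 genes, 4 were higher (9.3%) and 2 lower (4.65%) with imatinib, and 12 higher (27.9%) and 2 lower with nilotinib, so the shares called higher were near the array's 11.5% and 28.6%. Beside AHR, the lower call was CEBPB, a leucine zipper factor active on liver genes (3560 ± 276, 1077 ± 140 and 850 ± 62.8; -1.71 ± 0.09 and -2.05 ± 0.09). RXRA, the partner of PXR and CAR, rose on 202449_s_at (496 ± 73.8, 994 ± 146 and 1120 ± 148; 0.98 ± 0.12 and 1.15 ± 0.12). NR1I3 (CAR) was at 43.6 or less on average and not called (-0.38 ± 0.38 and -0.41 ± 0.38), and NR1I2 (PXR) was not analysed here.
Of 30 probe sets for other oxidising and hydrolysing enzymes of drug metabolism, 3 were higher (10.0%) and 4 lower (13.3%) with imatinib, and 11 higher (36.7%) and 5 lower (16.7%) with nilotinib, beside 11.5% and 8.88%, and 28.6% and 13.0%, over the array. The quinone reductases NQO1 and NQO2 were among the lower (NQO2 at 2661 ± 51.8, 833 ± 58.4 and 770 ± 116), and the ketosteroid reductase AKR1C3 was among the higher (307 ± 20.4, 649 ± 118 and 783 ± 104). Of 36 probe sets for conjugating enzymes, which attach a polar group to oxidised drugs, 12 were higher (33.3%) and 1 lower (2.78%) with imatinib and 16 higher (44.4%) and 1 lower with nilotinib, against the same array shares, with median changes of 0.27 and 0.67 beside 0.14 and 0.36. They included the glutathione transferase GSTM3 (377 ± 32.4, 848 ± 90.7 and 833 ± 75.3; 1.13 ± 0.11 and 1.11 ± 0.11).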

How the data were processed

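Total RNA of 12 K562 samples, 4 per group by their titles, was labelled with biotin and hybridised to Affymetrix U133A 2.0 arrays. The deposited values, used unchanged, are linear intensity signals from MAS5, as the submitters' processing notes say without a version. MAS5 scales an array by 1 factor, so a shift of dim probe sets stays in the values. The number of arrays limits the precision, and detection calls were not used here.

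Of 22277 probe sets, 62 controls were left out, and all 22215 others were tested with no filter, 1 mean per group and a variance trend (limma 3.58.1, R 4.3.3, 9 residual degrees of freedom), and p-values were adjusted over all of them in each comparison. The fit was tested on simulated data. Genes came from GEO's platform annotation with symbols updated by gene identifier: 19064 probe sets named 1 gene, 1043 several and 2108 none. A P450 probe set was named with its values when called with a log2 change of at least 1 and a group mean of at least 100, and CYP3A5, families 1 and 3, CYP2C8 and the brightest probe set of each role were added. Alternatives were offsets of 1 and 64, a filter at the 40th percentile, 3 other scalings, 1 probe set per gene, no trend, array weights, only the groups compared, arrays split by an actin ratio of 3.5, and leaving out each array. The members and lists were chosen with earlier results of these data known. Promoter windows were read from RefSeq's GRCh38.p14 table and aligned with Biopython 1.88, and figures were drawn with matplotlib 3.10.9. No 2 arrays were identical.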

Additional observations from a re-analysis of the deposited data

Results flagged for a closer look

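In 4 of 48 groups of 4 arrays (16 named probe sets in 3 groups), 1 array lay far from the other 3 by Dixon's criterion, which by chance marks about 1 group in 20. Each was the lowest of its group. The high array described above, nilotinib replicate 2 at 673 on CYP3A43 211440_x_at, was not among those flagged. Replicate 11 of DMSO read 120 on CYP3A5 214235_at. Replicate 6 of imatinib read 138 on CYP3A43 207773_x_at. Replicate 8 of imatinib read 54.9 on CYP2A7 207718_x_at. Replicate 3 of nilotinib read 228 on CYP2A6 207244_x_at. Leaving out these arrays kept the calls of CYP3A5 and CYP3A43 against DMSO.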

How the results depend on the processing

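No paired analysis was possible because the sample numbers run on across the 3 groups, which share none. For the 16 named probe sets, 842 of 939 alternative values kept their direction and their side of the threshold, 60 lost the call, 11 gained it and 26 changed sign. The imatinib count of 14 became 7 with 1 probe set per gene (of 43) and 9 on drug arrays of high actin ratio, and 10 to 13 leaving out 1 array. The nilotinib count of 29 became 18 with the filter (of 25 tested), 14 with quantile normalization, 13 with median centring, 13 with cyclic loess and 17 with 1 probe set per gene, and 20 to 29 leaving out 1 array. Fewer probe sets were tested with the filter and with 1 per gene, and for the scalings the cause was not tested. The count of 7 between the drugs became 3, 2 and 3 under those scalings, 3 with 1 probe set per gene, 1 without the trend, 3 with array weights, 3 and 2 on arrays of high and lower actin ratio, and 2 to 8 leaving out 1 array. All calls stayed higher except 1 of 27 with nilotinib on arrays of high actin ratio and 1 of 13 with imatinib without DMSO replicate 9.

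The sign changes were all of values not called. With imatinib, CYP2A6 207244_x_at gave -0.17 (quantile), -0.17 (median), -0.15 (loess) and -0.37 (high actin ratio), and -0.14 to 0.46 leaving out 1 array, with -0.06 without imatinib replicate 5, -0.14 without 7, -0.04 without 8, -0.04 without DMSO replicate 10 and -0.02 without 11. CYP2A6 211295_x_at gave -0.09, -0.10, -0.07 and -0.03 in the same settings, and -0.02 (without imatinib replicate 5) to 0.38 leaving out 1 array. CYP2A7 gave -0.01 on lower actin ratio and -0.04 (without DMSO replicate 10) to 0.52 leaving out 1 array. Between the drugs CYP2F1 gave -0.06 (quantile), -0.18 (median), -0.09 (loess), -0.05 (lower actin ratio), -0.02 without nilotinib replicate 3, and -0.09 (without imatinib replicate 6) to 0.25 leaving out 1 array. CYP1A1 gave -0.03 (median), -0.03 (loess) and -0.01 (lower actin ratio), and CYP3A43 211442_x_at -0.49 (high actin ratio). The cause was not tested. Signal limits 30 of the 66 probe sets, which stayed at or under the control level in all groups.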

Other observations

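Genes that flank the CYP3A cluster in the annotation are given here as values. CPSF4, a cleavage and polyadenylation factor, had means of 1345, 1197 and 964 with DMSO, imatinib and nilotinib and was lower with nilotinib (-0.48 ± 0.11, adjusted p = 0.00306). ZNF394, a zinc finger gene, had means of 528, 598 and 596 and was not called (0.15 ± 0.15 with each drug), nor was ZKSCAN5 on either probe set. On the other side AZGP1 was dim (23.9, 32.3 and 41.2) and not called, and the pseudogene AZGP1P1 was called with nilotinib at a mean of 53.5 (1.07 ± 0.37, adjusted p = 0.0277), under the control level.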
